A study of Mus musculus with 2 samples.

Results

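A set of 46 nuclear genes of mitochondrial complex I was followed across the leukocytes of the gastric mucosa of TxA23 mice. They were all genes of the deposited matrices whose symbol starts with Nduf, without names ending in -ps or Rik, which took 46 of 31053 genes. By textbook role they were 7 core subunits, 9 accessory subunits of the matrix arm, 20 accessory subunits of the membrane arm and 8 assembly factors. A further 2 belong by name only, namely Ndufa4, now counted with complex IV, and Ndufa4l2. All mice were of the TxA23 strain, whose T cell receptor transgene leads to autoimmune gastritis, and all wore a subcutaneous osmotic pump from 3 months of age for 4 weeks. The IL-27 group, 3 females, had pumps loaded with 800 ng of carrier-free rIL27, at 4 ug/mL in a volume of 200 uL PBS, and the PBS group, 1 male and 1 female, had pumps with PBS alone. Live CD45+ cells were sorted from the mucosa and sequenced by 10x Genomics 5′ chemistry, and each group was deposited as 1 library that pools its mice.

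Complex I passes electrons from NADH to ubiquinone and pumps protons across the inner mitochondrial membrane, and it is the largest enzyme of the respiratory chain. Its matrix arm holds the flavin and the iron-sulfur clusters, its membrane arm holds the proton channels, and the core of the membrane arm is encoded by mitochondrial DNA. The accessory subunits surround the core, and the assembly factors help to build the complex and are absent from the finished enzyme. Lymphocytes that are activated and divide are known to raise mitochondrial mass and respiration.

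There were 20897 barcodes with 80121995 UMIs (unique molecular identifiers, counted as RNA molecules) in the IL-27 library and 12276 barcodes with 43501501 UMIs in the PBS library. The filters kept 20579 cells of the IL-27 library (median 3079 UMIs) and 11793 of the PBS library (median 2958 UMIs). The barcode suffixes split the libraries into 3 IL-27 wells and 2 PBS wells, and pairs of wells shared 43 to 69 cell barcodes. PBS well 2 held 3138 UMIs of 4 Y-linked genes and the other wells 0. No label states that a well is a mouse. The Y-linked counts place cells of the 1 PBS male in PBS well 2 and none in PBS well 1. The IL-27 mice were all female, so sex differed between the groups and cannot be told apart from PBS well 2. The p-values between cell types measure how a difference varied from well to well, and those of IL-27 over PBS the spread between wells. Either spread may be technical. Cells were assigned to 15 gates by raw UMIs of marker genes, which took 73.9% of the IL-27 library and 80.9% of the PBS library. The gates held their defining genes (Cd79a at 3184 CPM, UMIs scaled to a total of 1e6, in B cells; Cd4 at 450.4 CPM in conventional CD4 T cells; Ncr1 at 1903 CPM in NK cells), which is a check of the counts only, since the same genes set the gates. Over all cells kept, 14 gastric epithelial genes summed to 8.71 to 44.8 CPM per well, and the parietal cell gene Atp4a stayed at or under 0.243 CPM.

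The members were covered unevenly. They gave 546238 of the 89337075 UMIs in gated cells, or 0.611%, with a median of 9841 UMIs per gene. The highest count was 36733 UMIs, for Ndufa3. Ndufa4l2, a relative of Ndufa4 known from hypoxic cells, had 0 UMIs among 122618103 in all 32372 cells kept, and a count of 0 allows up to 0.0245 CPM at this depth, counting error only. The other 45 genes had at least 100 UMIs each, and it is these 45, or fewer where a gate was small, that passed the filter on low counts. All 46 were found in the GENCODE M21 annotation (GRCm38), on 17 chromosomes. Of them, 18 overlap a gene on the opposite strand and 6 a gene on the same strand, the 6 being Ndufa10, Ndufa13, Ndufb2, Ndufb8, Ndufb9 and Ndufc2. How the counting divided reads between such genes was not tested.

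The promoters of the members are shown for 4 genes on which the results turn. Ndufv3, an accessory subunit of the matrix arm, had the highest fold in CD4 T and in plasmacytoid dendritic cells over B cells. Ndufs8, an iron-sulfur core subunit, was lower in CD4 T cells than in B cells. Ndufs5, an accessory subunit of the membrane arm, was called by edgeR higher in plasmacytoid dendritic cells and lower in macrophages and monocytes than in B cells. DESeq2 did not call it in macrophages and monocytes. Ndufaf4, an assembly factor of the matrix arm, was lower in cycling T cells. Each sequence runs 5′ to 3′ on the gene's strand from 250 bases before to 50 after the start in RefSeq (GRCm38.p6), with matches to 7 motifs, spelled out after them, in capitals on either strand.
Ndufv3 (chr17:31519865-31520164, plus strand): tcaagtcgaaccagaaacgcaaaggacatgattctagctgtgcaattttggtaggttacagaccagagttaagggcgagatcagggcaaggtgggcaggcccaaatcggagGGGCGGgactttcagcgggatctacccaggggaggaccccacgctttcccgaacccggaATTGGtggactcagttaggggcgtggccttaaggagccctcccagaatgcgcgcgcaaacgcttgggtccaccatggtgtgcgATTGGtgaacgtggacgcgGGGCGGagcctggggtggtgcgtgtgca
Ndufs8 (chr19:3912725-3913024, minus strand): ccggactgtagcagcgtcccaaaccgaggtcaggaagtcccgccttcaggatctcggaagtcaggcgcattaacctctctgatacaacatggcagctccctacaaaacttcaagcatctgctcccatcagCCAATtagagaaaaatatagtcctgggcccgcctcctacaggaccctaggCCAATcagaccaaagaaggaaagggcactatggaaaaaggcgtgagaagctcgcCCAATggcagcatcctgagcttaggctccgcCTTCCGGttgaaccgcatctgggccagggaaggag
Ndufs5 (chr4:123718137-123718436, minus strand): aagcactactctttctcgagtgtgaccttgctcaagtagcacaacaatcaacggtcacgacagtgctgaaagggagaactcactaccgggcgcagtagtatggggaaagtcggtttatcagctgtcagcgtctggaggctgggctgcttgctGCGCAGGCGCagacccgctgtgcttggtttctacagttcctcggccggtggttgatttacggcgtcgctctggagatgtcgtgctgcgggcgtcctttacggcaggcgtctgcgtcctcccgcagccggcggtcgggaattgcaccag
Ndufaf4 (chr4:24897833-24898132, plus strand): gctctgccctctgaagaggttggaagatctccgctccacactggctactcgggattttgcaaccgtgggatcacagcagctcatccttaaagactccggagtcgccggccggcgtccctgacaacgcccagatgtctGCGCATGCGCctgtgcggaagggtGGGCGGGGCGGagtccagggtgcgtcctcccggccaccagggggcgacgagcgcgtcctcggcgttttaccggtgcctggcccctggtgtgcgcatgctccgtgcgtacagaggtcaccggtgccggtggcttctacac

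RefSeq promoters were matched for 40 of the 46 genes, 42 promoters in all, and were searched on both strands for 7 motifs, of which none contains another. The NRF1 motif, GCGCA and GCGC with 1 base of any kind between them, was in 10 of the 42 (23.8%) and in 4.603% of all 32851 promoters of the same length. NRF1 is a transcription factor known for nuclear genes of the respiratory chain, and the promoters of Ndufs5 and Ndufaf4 shown above each hold the motif. The YY1 motif ATGGCGGC was in 8 member promoters (19.0%) and in 2.24% of all, and the CRE motif TGACGTCA in 3 (7.14%) and in 1.79%. The SP motif GGGCGG was in 22 member promoters (52.4%) and in 35.7% of all, and the ETS motif CCGGAAG in 6 (14.3%) and in 8.86%. CCAAT was in 14 member promoters (33.3%) and in 37.4% of all, and TATAAA in 5 (11.9%) and in 13.6%. Ndufa5 and Ndufa7 each gave a pair of overlapping promoters with the same matches. The member counts for NRF1, SP, YY1 and TATAAA therefore each hold 1 match that was counted more than once. All of these are matches of letters, described without a test, and say nothing of binding.

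Summed over the members, the mean of wells was lowest in neutrophils and B cells and highest in cycling lymphocytes. Cycling T cells, defined by cell cycle genes, averaged 8395 ± 381 CPM (SD, n = 5 wells), with 8269, 8077 and 8273 CPM in the IL-27 wells and 8300.3 and 9058 CPM in the PBS wells. B cells averaged 5602 ± 143 CPM, with 5638, 5419 and 5717 CPM in the IL-27 wells and 5747 and 5489 CPM in the PBS wells. The ranges of cycling T and B cells did not overlap, and within wells the ratio was 1.4997 ± 0.0862 (SD, n = 5). Between them stood, from low to high, dendritic cells (6387 CPM, n = 3 wells), CD8 T cells (6391 ± 664, n = 5), macrophages and monocytes (6472, n = 3), conventional CD4 T cells (7002 ± 193, n = 5), NK cells (7169 ± 283, n = 5), regulatory T cells (7476 ± 235, n = 5), plasmacytoid dendritic cells (7512 ± 222, n = 4) and type 2 innate lymphoid cells (7709 ± 562, n = 3). Each of these overlapped its neighbour in the order, while gates farther apart could be separate, as conventional CD4 T cells (6813 to 7300 CPM) were from plasmacytoid dendritic cells (7314 to 7828 CPM). Of the gates between, dendritic cells spread most, with an SD of 1202 CPM, against 532 CPM in macrophages and monocytes. Their value in IL-27 well 1, 5023.5 CPM, lay below every B cell value, so their place above B cells is not settled. Cycling cells were taken out of the T and B gates only. Type 2 innate lymphoid cells held Mki67 at 68.1 CPM, against 1.69 to 7.08 CPM in B, conventional CD4, regulatory and CD8 T cells. Their highest value, 8265.5 CPM in IL-27 well 2, came from 10 cells. Gastric epithelial genes were at 836 CPM in these, against 38.6 CPM in IL-27 well 1 and 34.3 CPM in PBS well 2. The part of either was not tested. Within wells, regulatory T cells were above conventional CD4 T cells in 5 of 5.

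Neutrophils stood apart below B cells, with 4254 CPM in IL-27 well 1 and 2547 CPM in PBS well 2, the only wells with at least 10 of their cells. Mast cells (7380 CPM, PBS well 2) and cycling B cells (9137 CPM, IL-27 well 3) had 1 such well each, so that gate and well cannot be told apart. Relative to B cells of the same well, the summed level was 1.25 ± 0.0495 times as high in conventional CD4 T cells, 1.34 ± 0.0551 in regulatory T cells, 1.14 ± 0.133 in CD8 T cells and 1.28 ± 0.0631 in NK cells (SD, n = 5 wells each). In all 4 the ratio was above 1 in 5 of 5 wells. When mitochondrial, ribosomal protein and antigen receptor genes were left out of the total, the ratio of NK to B cells was 1.07. In a single cell this came to a median of 112.5 member UMIs in cycling T cells and 15 in B cells, at median depths of 14210 and 2801 UMIs.

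**Figure D1:**
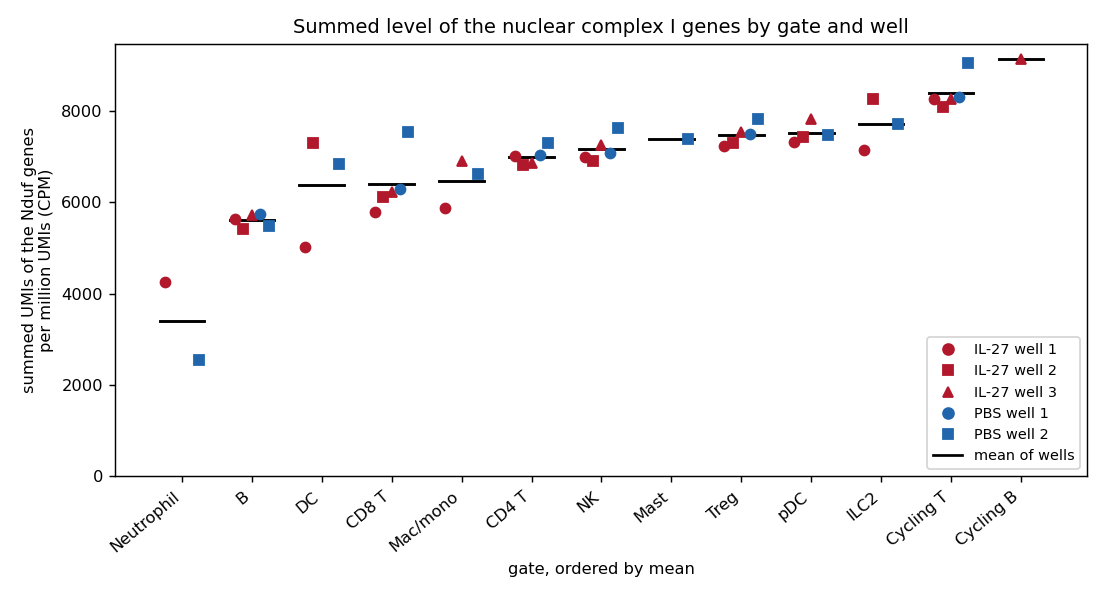
Summed UMIs of the 46 Nduf genes (CPM, y axis) in each gate (x axis, ordered by mean); points are wells with at least 10 cells of the gate, red for IL-27 and blue for PBS, and black lines are means of wells. Cycling T cells lie between 8077 and 9058 CPM, above all B cell values (5419 to 5747 CPM), and PBS well 2 stands above the other wells in CD8 T cells at 7531 CPM.

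Conventional CD4 T cells had more RNA of most accessory subunits than B cells, while 3 core subunits were lower. With edgeR's quasi-likelihood test and Benjamini-Hochberg adjustment over all genes, 23 of the 45 members tested were higher and 4 lower, where 29.0% of the 10808 genes tested were higher and 30.9% lower. The members' median log2 fold change was 0.16, against -0.03 for all genes. By role, 15 of 20 membrane-arm accessory subunits and 6 of 9 matrix-arm accessory subunits were higher and none of either was lower. Of 7 core subunits 1 was higher and 3 lower, and of 8 assembly factors none was higher and 1 lower. DESeq2 called 19 higher and 1 lower, where it called 23.8% of genes higher and 24.0% lower. Without TMM scaling 32 were higher and 0 lower, where 34.5% and 25.1% of genes were, and all 27 members called with it kept their signs. Without IL-27 well 3, 2 members were lower, where 3041 of 10869 genes were.

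Ndufv3 had 224.7, 229.2 and 218.5 CPM in CD4 T cells of the IL-27 wells and 226.5 and 290.5 CPM in those of the PBS wells, against 127.5, 125.9, 134.3, 136.4 and 137.0 CPM in B cells of the same wells. The groups did not overlap, and PBS well 2 was the highest of the CD4 T values. The log2 fold change was 0.73 (SE 0.0567, edgeR adjusted p = 1.46e-09). Ndufa13, a membrane-arm subunit also described as a cell death regulator, had 339.5, 318.1, 324.6, 335.1 and 376.0 CPM in CD4 T cells, against 215.1, 198.1, 206.4, 206.4 and 206.5 CPM in B cells, a log2 fold change of 0.61 (SE 0.0520). Ndufb6, of the same arm, had 136.7, 131.8, 131.8, 124.1 and 125.3 CPM in CD4 T cells, against 80.4, 76.9, 82.5, 83.4 and 77.8 CPM in B cells, with a log2 fold change of 0.61 (SE 0.0612). In both genes every CD4 T value was above every B value.

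The lower members were closer. Ndufs8, whose promoter is given above, had 90.4, 88.6, 88.0, 91.3 and 72.2 CPM in CD4 T cells, against 95.41, 95.04, 102.5, 98.6 and 89.99 CPM in B cells, a log2 fold change of -0.24 (SE 0.0670, edgeR adjusted p = 0.00485). The ranges overlapped narrowly, through the low B value of PBS well 2. Ndufs7, which carries the last iron-sulfur cluster before ubiquinone, had 145.4, 145.6, 128.0, 146.4 and 154.8 CPM in CD4 T cells and 154.6, 144.1, 158.4, 161.5 and 144.5 CPM in B cells. These ranges overlapped almost wholly on the CPM scale, while the TMM-scaled log2 fold change was -0.19 (SE 0.0619, edgeR adjusted p = 0.0123). Ndufaf1, an assembly factor of the membrane arm, had 13.56, 12.59, 12.02, 12.24 and 11.79 CPM in CD4 T cells and 16.54, 16.04, 13.98, 16.3 and 15.4 CPM in B cells, with no overlap and a log2 fold change of -0.41 (SE 0.131). Ndufv2, a core iron-sulfur subunit, was higher at 0.41 on the log2 scale.

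**Figure D2:**
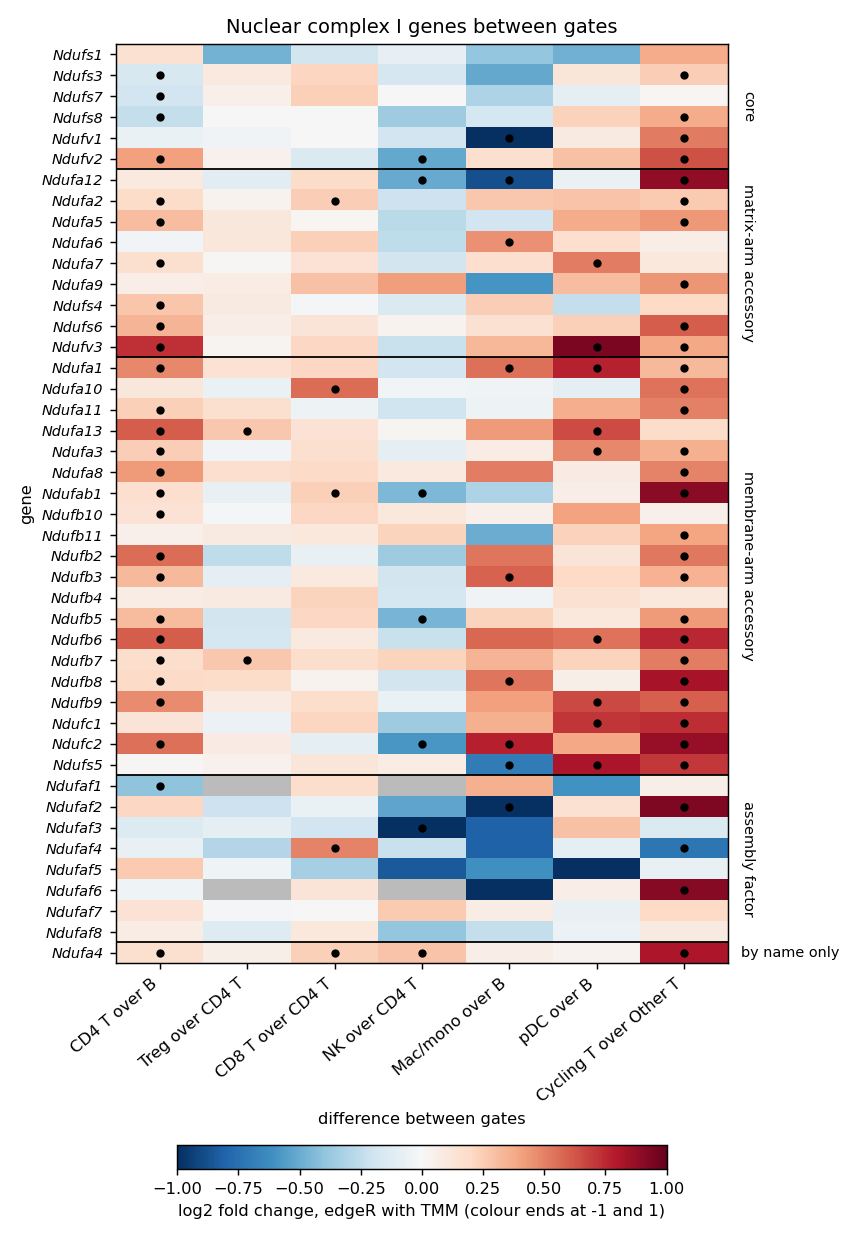
Log2 fold change of the tested Nduf genes reported by name (rows, grouped by role) in 7 differences between gates (columns; the gate named first over the second), with red higher and blue lower in the first gate, grey not tested, and black dots for an edgeR adjusted p under 0.05. The column for cycling T over other T cells is mostly red with 1 lower call (Ndufaf4), and CD4 T over B cells holds 23 higher and 4 lower calls.

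Within the T and NK lineages fewer members differed. Regulatory T cells had 2 of 43 members higher than conventional CD4 T cells and 0 lower by edgeR, where 8.17% of 6975 genes were higher and 7.05% lower. Ndufa13 had 427.6, 374.8, 435.2, 422.7 and 441.8 CPM in regulatory T cells and 339.5, 318.1, 324.6, 335.1 and 376.0 CPM in conventional CD4 T cells, a log2 fold change of 0.27 (SE 0.0727, edgeR adjusted p = 0.00762). The ranges overlapped in 1 value of the regulatory T cells, that of IL-27 well 2. Ndufb7, a membrane-arm subunit, had 211.1, 271.0, 228.3, 254.9 and 287.8 CPM in regulatory T cells and 192.7, 196.8, 187.6, 185.9 and 237.4 CPM in conventional CD4 T cells, a log2 fold change of 0.27 (SE 0.0857, edgeR adjusted p = 0.0232). DESeq2 called 0 members, with 2 at an unadjusted p under 0.05 (4.56% of genes higher, 3.00% lower). EdgeR called 0 without IL-27 well 3, where 429 of 6628 genes were higher. It called 1 without IL-27 well 2, where 485 of 7020 genes were higher, or without PBS well 1, where 6.63% were.

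In CD8 T cells the direction depended on the scaling. With TMM, 5 of 45 members were higher than in conventional CD4 T cells and 0 lower by edgeR, where 10.8% of 8955 genes were higher and 10.0% lower. Without TMM, 0 were higher and 10 lower, where 4.51% of genes were higher and 32.9% lower. The median of all genes moved to -0.31 without TMM, against -0.00 with it, and the members' median to -0.15, against 0.15. The members' median was above that of all genes under both. Leaving out TMM shifts all genes by nearly the same amount, so this agreement was given in advance. Ndufa10, an accessory subunit of the membrane arm, had 105.3, 130.4, 117.1, 112.2 and 74.6 CPM in CD8 T cells and 98.4, 94.4, 102.2, 89.1 and 72.2 CPM in conventional CD4 T cells. It was higher in CD8 T cells of all 5 wells, with a log2 fold change of 0.56 (SE 0.0997, edgeR adjusted p = 0.00263), and PBS well 2 was the lowest in both gates. Ndufaf4 had 51.1, 48.6, 62.1, 61.2 and 39.2 CPM in CD8 T cells and 47.7, 50.8, 57.5, 35.1 and 42.8 CPM in conventional CD4 T cells, overlapping ranges, with a log2 fold change of 0.49 (SE 0.141). Ndufa2, Ndufab1 and Ndufa4 were called higher at 0.24 to 0.25 with TMM and were at -0.05 to -0.07 without it. In CPM, Ndufa2 had 266.7, 294.9, 276.9, 311.8 and 308.1 in CD8 T cells and 303.3, 291.7, 287.2, 311.7 and 312.6 in conventional CD4 T cells. Ndufab1 had 116.0, 112.8, 103.0, 121.6 and 153.1 CPM in CD8 T cells and 127.6, 123.0, 115.9, 127.5 and 131.2 CPM in conventional CD4 T cells, and Ndufa4 373.6, 362.6, 379.8, 393.7 and 491.8 CPM in CD8 T cells and 407.6, 401.6, 401.0, 411.9 and 446.7 CPM in conventional CD4 T cells. All 3 genes overlapped, and the CD8 T value of PBS well 2 was the highest of both gates for Ndufab1 and Ndufa4.

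PBS well 2 stood apart in this gate. Its summed level was 7531 CPM, against 5796 to 6289 CPM in the other 4 wells. Without it, edgeR called 21 members higher and 1 lower, where 18.9% of genes were higher and 18.3% lower. Without any other single well it called 1 higher, where 458 to 559 genes of 8900 to 9148 were. DESeq2 called 1 higher, where 6.70% of genes were higher. Gastric epithelial genes reached 113 CPM in the CD8 T gate of PBS well 2, with 3 of the 14 at 0, and 2.69 to 26.1 CPM in the other wells, with 6 to 12 at 0. The class II chaperone Cd74, abundant in B, dendritic and plasmacytoid dendritic cells, macrophages and monocytes, was at 512 CPM there and at 47.7 to 101 CPM in the others. Antibody genes did not all go with it. In this gate PBS well 2 was highest for Igkc, at 25.83 CPM, but lowest for Ighm, at 32.53 CPM. Its Ighd, at 6.70 CPM, was within the range of the others. PBS well 2 also held the most epithelial and Cd74 RNA in the conventional CD4 T and regulatory T gates. In the conventional CD4 T gate Cd74 was at 2164 CPM there and at 74.0 to 164 CPM in the other wells. Igkc was highest there too, at 30.96 CPM, Ighd lowest, at 1.47 CPM, and Ighm within the range, at 76.67 CPM. In the regulatory T gate epithelial genes were at 353 CPM there and at 32.04 to 80.6 CPM in the others. Neither the source of this RNA nor its part in these results was tested. The part of sex was not tested either, since PBS well 2 is the only well with Y-linked RNA.

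NK cells had 1 member higher and 6 lower than conventional CD4 T cells by edgeR, of 43 tested, where 14.0% of 6516 genes were higher and 14.8% lower. Ndufa4 had 487.7, 594.2, 567.7, 549.7 and 611.7 CPM in NK cells and 407.6, 401.6, 401.0, 411.9 and 446.7 CPM in conventional CD4 T cells, with no overlap and a log2 fold change of 0.28 (SE 0.0946, edgeR adjusted p = 0.0211). Ndufaf3, which acts with Ndufaf4 in building the matrix arm, had 38.0, 22.2, 9.96, 20.9 and 31.5 CPM in NK cells, from 28 UMIs in all, and 46.95, 53.3, 52.4, 55.1 and 47.2 CPM in conventional CD4 T cells. No value overlapped, and the log2 fold change was -1.06 (SE 0.274, edgeR adjusted p = 0.00256). Ndufc2 had 57.0, 99.97, 119.5, 132.2 and 121.4 CPM in NK cells and 140.5, 143.5, 156.3, 144.7 and 134.2 CPM in conventional CD4 T cells, again with no overlap, a log2 fold change of -0.58 (SE 0.168). Ndufv2, Ndufa12, Ndufb5 and Ndufab1 were called lower too, between -0.51 and -0.45. Ndufv2 had 145.7, 111.1, 99.59, 118.3 and 128.2 CPM in NK cells and 157.2, 143.5, 145.6, 151.4 and 174.0 CPM in conventional CD4 T cells. Ndufb5 had 171.0, 133.3, 179.3, 167.0 and 188.9 CPM in NK cells and 208.0, 198.9, 215.5, 233.2 and 194.6 CPM in conventional CD4 T cells, and Ndufab1 82.3, 88.9, 99.59, 118.3 and 119.2 CPM in NK cells and 127.6, 123.0, 115.9, 127.5 and 131.2 CPM in conventional CD4 T cells. Only Ndufb5 of these last 3 did not overlap. Without TMM 3 members were higher and 1 lower, where 19.3% and 11.4% of genes were, though the 7 called genes kept their signs. The median of all genes was 0.14 without TMM, against -0.01 with it, and that of the members -0.03, against -0.19. By mean of wells the summed level was higher in NK cells, at 7169 CPM, than in conventional CD4 T cells, at 7002 CPM, with overlapping ranges. The order of these gates thus depended on the measure. DESeq2 called 0 higher and 2 lower, where 11.0% and 10.6% of genes were. Ndufa4 was not called without IL-27 well 2, IL-27 well 3 or PBS well 2. Without IL-27 well 1 or IL-27 well 2, 3 members were lower, where 823 of 6595 and 819 of 6586 genes were.

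Plasmacytoid dendritic cells, known as producers of type I interferon, had 9 of 45 members higher than B cells and 0 lower by edgeR in 4 wells, where 16.5% of 10257 genes were higher and 17.7% lower. The 9 were Ndufv3, Ndufa7 and 7 membrane-arm accessory subunits, and DESeq2 called 8, where 12.5% of genes were higher. Ndufv3 had 273.9, 179.4 and 359.5 CPM in these cells of the IL-27 wells and 283.2 CPM in those of PBS well 2, against 125.9 to 137.0 CPM in B cells of all 5 wells. That is a log2 fold change of 0.94 (SE 0.170, edgeR adjusted p = 2.52e-07). Ndufs5 had 248.5, 213.0, 305.6 and 222.4 CPM, against 117.0 to 134.8 CPM in B cells, and Ndufa1, a small membrane-arm subunit encoded on the X chromosome, had 286.7, 381.2, 314.6 and 297.1 CPM, against 163.1 to 184.8 CPM. Neither overlapped its B cell range, and their log2 fold changes were 0.82 (SE 0.173) and 0.77 (SE 0.163). The smallest of the 9 differences were in Ndufa3, at 637.1, 538.1, 611.2 and 465.6 CPM, against 341.4 to 426.4 CPM in B cells, and in Ndufa7, at 477.8, 470.9, 341.5 and 415.2 CPM, against 265.9 to 290.0 CPM, and neither overlapped. Ndufb6, also among the smallest, had 95.6, 134.5, 125.8 and 137.2 CPM, against 76.9 to 83.4 CPM in B cells, with no overlap. Core subunits and assembly factors had no call. Without PBS well 2, which gave 61 of the 131 cells, 5 members were higher, where 10.9% of genes were.

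Macrophages and monocytes had 5 members higher and 4 lower than B cells by edgeR in 3 wells, of 45 tested, where 13.7% of 10293 genes were higher and 15.4% lower. DESeq2 called 0, with 3 at an unadjusted p under 0.05, where 10.8% of genes were higher and 7.30% lower. Ndufc2, a membrane-arm accessory subunit, had 138.4 and 191.8 CPM in IL-27 wells 1 and 3 and 161.6 CPM in PBS well 2, against 83.4 to 100.1 CPM in B cells, a log2 fold change of 0.78 (SE 0.240, edgeR adjusted p = 0.00576). Ndufs5, higher in plasmacytoid dendritic cells, had 138.4, 67.1 and 68.1 CPM here, against 117.0 to 134.8 CPM in B cells, with 1 value above and 2 below that range, and had a log2 fold change of -0.70 (edgeR adjusted p = 0.0396). It was picked for its opposite directions after its values were seen. Ndufv1, the flavin-binding core subunit, had 0, 38.4 and 46.8 CPM, against 62.3 to 69.6 CPM in B cells, all 3 below the range. Ndufa12, a matrix-arm accessory subunit, had 11.5, 67.1 and 59.5 CPM, against 83.1 to 96.5 CPM in B cells, also all below, at -0.88. Among the higher members, Ndufb3 had 184.5, 143.8 and 170.1 CPM, against 100.4 to 106.0 CPM in B cells, and Ndufa1 242.2, 306.8 and 255.2 CPM, against 163.1 to 184.8 CPM. Neither overlapped its B cell range. Ndufaf2, an assembly factor related to Ndufa12, had 1 UMI in these 3 wells, and its ratio of CPM to B cells was 0.127 (95% interval 0.00320 to 0.708, counting error only). The gate held 83 cells. The calls changed with single wells, and edgeR called 6 higher and 1 lower without IL-27 well 1, 2 and 0 without IL-27 well 3, and 0 and 2 without PBS well 2. The median of all genes was -0.36 in this comparison and that of the members 0.08.

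Most members differed between cycling T cells and the other T cells. The other T cells were the conventional CD4, regulatory, CD8 and gamma-delta T gates summed, while cycling T cells were not split by subset. Cycling T cells held Cd4 at 160.7 CPM and Cd8a at 59.9 CPM. The conventional CD4 T gate held Cd4 at 450.4 CPM and the CD8 T gate Cd8a at 543.4 CPM. The part of the mix of subsets in these differences was not tested. By edgeR, 31 of 45 members were higher in cycling T cells and 1 lower, where 24.4% of 8995 genes were higher and 22.2% lower, and the members' median log2 fold change was 0.42, against -0.05 for all genes. Higher were 17 of 20 membrane-arm accessory subunits, 6 of 9 matrix-arm accessory subunits, 5 of 7 core subunits, Ndufa4 and 2 of 8 assembly factors. DESeq2 called 29 higher and 1 lower, where 19.8% and 15.2% of genes were. Without TMM 27 were higher and 1 lower, where 19.7% and 30.9% of genes were, with the median of all genes at -0.17, and all 32 called members kept their signs. Leaving out any 1 well left 28 to 33 higher and 1 lower, where 1815 to 2398 and 1448 to 2123 genes of 8750 to 9535 were.

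Ndufab1, the mitochondrial acyl carrier protein, which also serves fatty acid synthesis, had 220.5, 216.8 and 185.1 CPM in cycling T cells of the IL-27 wells and 218.5 and 182.3 CPM in those of the PBS wells, against 120.9, 117.4, 110.1, 124.8 and 146.2 CPM in other T cells. The groups did not overlap, and the log2 fold change was 0.90 (SE 0.0932, edgeR adjusted p = 9.09e-08). Ndufaf2 had 36.6, 26.3, 34.4, 29.9 and 47.1 CPM in cycling T cells and 20.1, 15.1, 18.4, 19.4 and 25.3 CPM in other T cells, again with no overlap, a log2 fold change of 0.93 (SE 0.152, edgeR adjusted p = 3.75e-05). Ndufa12, the subunit to which Ndufaf2 is related and which was added for that after its values were seen, had 155.4, 154.4, 175.1, 163.4 and 176.5 CPM in cycling T cells and 95.8, 87.7, 94.6, 103.7 and 102.2 CPM in other T cells, a log2 fold change of 0.89. Ndufaf6, an assembly factor, had 23.8, 15.3, 12.9, 17.7 and 29.4 CPM in cycling T cells and 12.1, 9.57, 10.7, 11.2 and 9.37 CPM in other T cells, from 82 and 253 UMIs, with a log2 fold change of 0.91 (SE 0.217). Every cycling value of these genes was above every other T value.

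At the low end of the called members, Ndufa2 had 326.4, 320.9, 317.1, 318.4 and 370.6 CPM in cycling T cells and 286.4, 294.3, 286.9, 312.0 and 312.6 CPM in other T cells, a log2 fold change of 0.26 (SE 0.0728). Ndufs3, a core subunit, had 88.9, 102.9, 101.9, 94.3 and 111.8 CPM in cycling T cells and 79.6, 99.3, 90.9, 89.9 and 95.6 CPM in other T cells, with overlapping ranges but a higher cycling value in 5 of 5 wells. Its log2 fold change was 0.25 (SE 0.0961, edgeR adjusted p = 0.0402). Ndufaf4 was the 1 member that fell, with 31.89, 35.04 and 25.83 CPM in cycling T cells of the IL-27 wells and 18.7 and 11.8 CPM in those of the PBS wells, against 49.2, 48.2, 56.3, 46.8 and 40.3 CPM in other T cells. The groups did not overlap, and the log2 fold change was -0.72 (SE 0.154, edgeR adjusted p = 0.000613). Its partner Ndufaf3 was at -0.15 and Ndufaf5, which modifies Ndufs7, at -0.07, and neither passed the test.

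**Figure D3:**
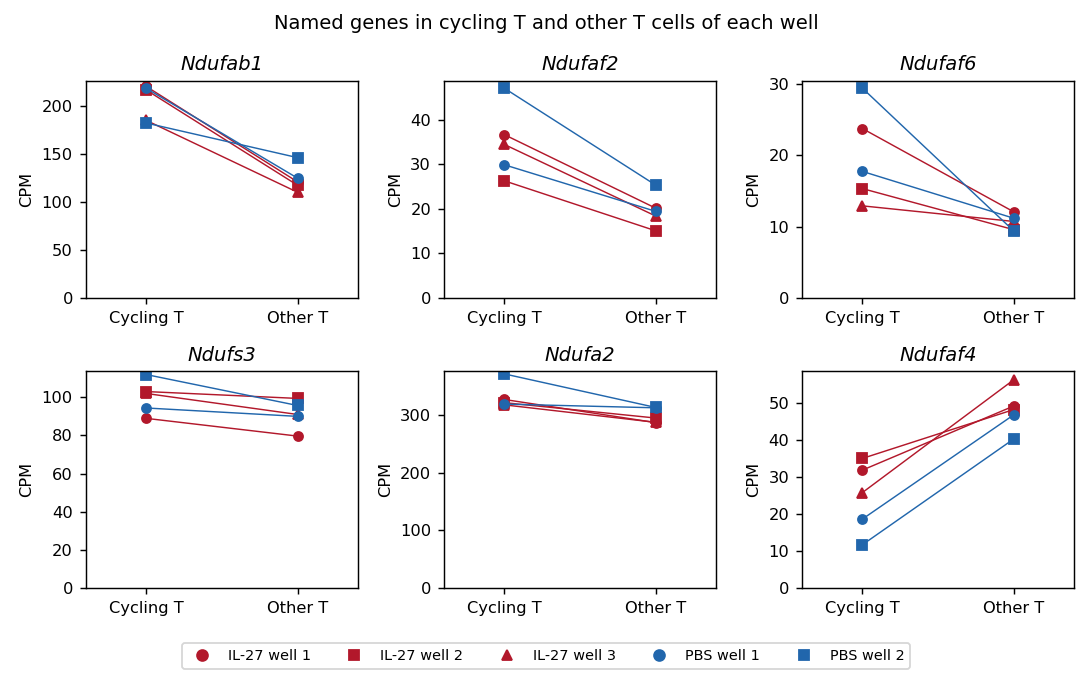
Level of 6 Nduf genes (CPM, y axis, from 0) in cycling T cells and in the other T cells (x axis) of each well, with a line joining the gates of 1 well, red for IL-27 and blue for PBS. Ndufab1, Ndufaf2, Ndufaf6, Ndufs3 and Ndufa2 are higher in cycling T cells in 5 of 5 wells, and Ndufaf4 is lower in 5 of 5.

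Cycling T cells were deeper, with a median of 14210 UMIs, so depth was set beside the level. Over 4 equal bins of other T cells by depth, made with all wells pooled, the summed level was 6520.4, 6792, 6538 and 6720.0 CPM. Median depths ran from 2194 to 7360 UMIs, and the level had no steady order. Other T cells of at least 8000 UMIs had 7284 CPM, and cycling T cells of at least 8000 UMIs 8344 CPM. Among cells of at least 8000 UMIs, 12 of 44 members were higher and 1 lower by edgeR, where 16.7% of 7054 genes were higher and 14.1% lower, and the members' median log2 fold change was 0.15. When the 5% of cells with the most UMIs were left out of each well, 2 wells kept 10 cycling T cells and 0 members were called. Of 8774 genes, 276 were higher and 134 lower in that fit. The part of depth in the fold changes was not tested further.

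**Figure D4:**
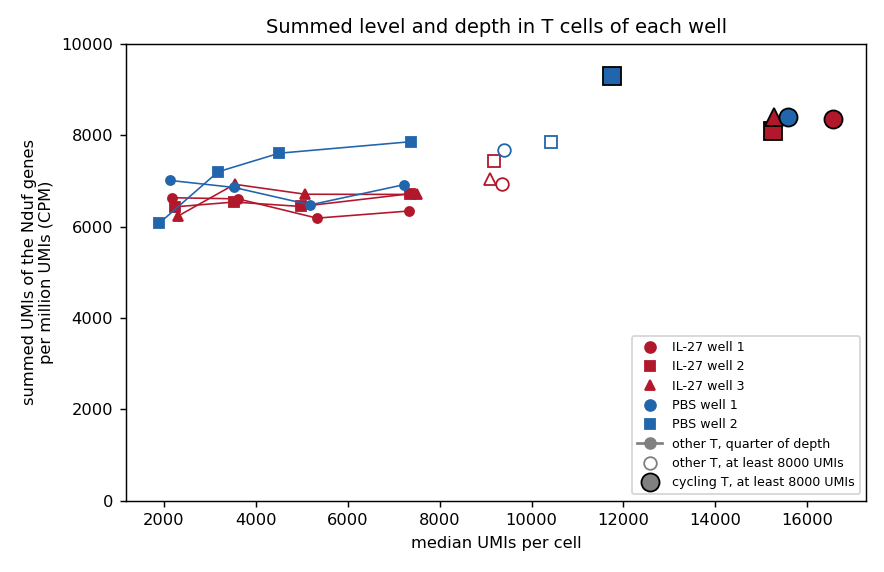
Summed UMIs of the 46 Nduf genes (CPM, y axis, from 0) against median UMIs per cell (x axis) in T cells of each well; small joined points are 4 equal bins of other T cells by depth, open points other T cells of at least 8000 UMIs, and large outlined points cycling T cells of at least 8000 UMIs. In PBS well 2 the bins rise with depth to 7861 CPM; in every well the large point lies above the open one.

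The other complexes of the chain were set beside complex I in the same fits, from lists chosen with results of these data known. In cycling over other T cells, all 10 complex IV genes and all 15 complex V genes of the lists were higher, as were 7 of 9 of complex III and 3 of 4 of complex II, with the same counts under each of the 3 other scalings. Median log2 fold changes were 0.79 for complex IV, 0.66 for complex V, 0.56 for complex III and 0.57 for complex II, against 0.42 for the members. Of 9 further assembly factors of complex I without the Nduf name (Acad9, Ecsit, Timmdc1 and others), 0 were called, with a median of 0.00. Of the 7 mitochondrially encoded subunits of complex I, 0 were higher and 3 lower, where 22.2% of all genes were lower, with a median of -0.12. The 3 were mt-Nd5, mt-Nd4 and mt-Nd2, at -0.36, -0.29 and -0.20, and without TMM 4 were lower, where 30.9% of genes were. Among 8 regulators, Nrf1 and Tfam, a factor of mitochondrial DNA, were higher at 0.79 and 0.56, and Myc was lower at -0.75. Myc differed between the subsets summed as other T cells, with 125 CPM in CD8 T and 60.8 CPM in conventional CD4 T cells. It was at 41.0 CPM in regulatory T cells and at 49.5 CPM in cycling T cells.

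In CD4 T over B cells, 10 of 15 complex V genes, 7 of 10 of complex IV, 5 of 9 of complex III and 1 of 4 of complex II were higher and 0 lower. All 7 mitochondrially encoded complex I genes were lower, between -0.57 for mt-Nd5 and -0.25 for mt-Nd3, under TMM, and 6 of 7 without TMM. Of the regulators, Myc was higher at 0.55, and Nrf1, Tfam and Esrra were lower at -0.25, -0.61 and -0.54. Ppargc1a, a coactivator of mitochondrial genes, had 0.0994 CPM in conventional CD4 T cells and 3.11 CPM in B cells. In NK over CD4 T cells with TMM, where 14.8% of all genes were lower, 5 of 15 complex V genes, 3 of 9 of complex III and 5 of 7 mitochondrially encoded complex I genes were lower and 0 higher. Complex IV had 1 higher and 2 lower of 10, and complex II 0 of 4 either way. Without TMM, where 11.4% of genes were lower, 3 of complex V, 2 of complex III, 2 of the mitochondrially encoded genes and 0 of complex IV were lower, and 3 of complex IV and 1 of complex V were higher.

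Between IL-27 and PBS no member passed the test in any of the 5 gates compared. In B cells the summed level was 5638, 5419 and 5717 CPM in the IL-27 wells and 5747 and 5489 CPM in the PBS wells, and the ratio of the libraries was 0.998 (95% interval 0.991 to 1.00, counting error only, as for all such intervals here). In conventional CD4 T cells it was 7006, 6813 and 6851 CPM in the IL-27 wells and 7038 and 7300 CPM in the PBS wells, a ratio of 0.970 (0.954 to 0.987). In regulatory T cells it was 7226, 7291 and 7540 CPM in the IL-27 wells and 7504 and 7822 CPM in the PBS wells, a ratio of 0.964 (0.936 to 0.993). The IL-27 and PBS wells overlapped in B and regulatory T cells, and in conventional CD4 T cells all 3 IL-27 values lay below both PBS values, by little. In CD8 T cells it was 5796, 6124 and 6218 CPM in the IL-27 wells and 6289 and 7531 CPM in the PBS wells, a ratio of 0.881 (0.866 to 0.896), and in NK cells 6999, 6903 and 7250 CPM in the IL-27 wells and 7070 and 7621 CPM in the PBS wells, a ratio of 0.937 (0.895 to 0.982).

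Over wells, edgeR and DESeq2 each called 0 members in B, conventional CD4 T, regulatory T, CD8 T and NK cells. At an unadjusted p under 0.05 edgeR had 0, 1, 0, 1 and 0 members in that order, of 45, 45, 43, 45 and 36 tested, and DESeq2 0 in each. Of all genes, edgeR called 0% in B, CD4 T and CD8 T cells, 0.0451% in regulatory T cells and 0.0670% in NK cells. Without PBS well 1, which leaves 1 PBS well whose spread is taken from the IL-27 wells, 8 members were higher and 5 lower in CD8 T cells, where 15.5% and 15.2% of genes were. The differences between gates were tested against the group as well: in edgeR's interaction of gate and group, 0 members were called for CD4 T over B, regulatory T over CD4 T, CD8 T over CD4 T, NK over CD4 T and cycling over other T cells, with 1, 0, 0, 1 and 0 at an unadjusted p under 0.05. Of all genes 0.0185%, 0%, 0%, 0.0614% and 0.0222% were called.

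By library, with no test, the members' median log2 ratio of IL-27 over PBS (CPM + 1) was 0.00 in B cells, -0.04 in conventional CD4 T cells, -0.05 in regulatory T cells, -0.19 in CD8 T cells and -0.08 in NK cells. Over all genes the medians were 0.01, 0.01, -0.01, -0.17 and -0.03, so in CD8 T cells the members stood close to all genes. With mitochondrial, ribosomal protein and antigen receptor genes left out of the total, the members' median in CD8 T cells was 0.00, and without PBS well 2 it was -0.07. Without TMM the well test gave a median of all genes of -0.20 in this gate. No member was 1.5-fold apart in B or conventional CD4 T cells, where 2.37% and 8.21% of genes were. In regulatory T cells 1 was lower (Ndufaf1, 9.30 CPM in IL-27 and 16.4 CPM in PBS, from 17 and 14 UMIs), where 14.9% of genes were 1.5-fold apart in either direction. In CD8 T cells 3 were lower, namely Ndufaf7, Ndufaf3 and Ndufs1, where 21.7% of genes were apart. In NK cells 1 was higher (Ndufv1, 82.1 CPM in IL-27 and 54.4 CPM in PBS, from 36 and 32 UMIs), where 19.7% of genes were apart.

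Ndufs1, an iron-sulfur core subunit of the matrix arm, had 17.7, 20.1 and 21.6 CPM in CD8 T cells of the IL-27 wells and 25.5 and 41.1 CPM in those of the PBS wells. All IL-27 values lay below both PBS values, and the log2 ratio was -0.70 by library and -0.38 without PBS well 2. By wells edgeR gave an adjusted p of 0.65. Ndufaf7, an assembly factor with methyltransferase activity, had 9.907, 12.04 and 13.63 CPM in CD8 T cells of the IL-27 wells and 13.4 and 29.7 CPM in those of the PBS wells, overlapping, and its log2 ratio of -0.76 became -0.22 once PBS well 2 was left out. Ndufaf3 was at 31.0 CPM in IL-27 and 48.9 CPM in PBS, and its log2 ratio of -0.64 was -0.22 without PBS well 2. None of the 3 was 1.5-fold apart without PBS well 2, whose CD8 T gate also held the epithelial and Cd74 RNA given above. Ndufa10 and Ndufa9, an accessory subunit of the matrix arm, stood at the other end. Ndufa9 had 32.1, 31.6 and 29.2 CPM in the IL-27 wells and 27.6 and 22.96 CPM in the PBS wells, at 0.27 with an edgeR adjusted p of 0.65.

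In conventional CD4 T cells Ndufaf4 had the highest ratio. It had 47.7, 50.8 and 57.5 CPM in the IL-27 wells and 35.1 and 42.8 CPM in the PBS wells, with no overlap, a log2 ratio of 0.46 by library and an edgeR log2 fold change of 0.46 (SE 0.167, adjusted p = 0.95). At the other end Ndufaf7 had 14.6, 19.3 and 15.0 CPM in the IL-27 wells and 20.04 and 17.7 CPM in the PBS wells, overlapping, at -0.24. Ndufa1 had 246.9, 242.6 and 243.0 CPM in the IL-27 wells and 256.0 and 319.9 CPM in the PBS wells, the IL-27 values all lower and that of PBS well 2 the farthest, at -0.16. Ndufaf6 had 14.96, 8.81 and 13.3 CPM in the IL-27 wells and 11.7 and 5.90 CPM in the PBS wells, overlapping, at 0.28. These differences did not pass the test. In regulatory T cells Ndufaf3 had 48.3, 34.6 and 48.1 CPM in the IL-27 wells and 71.9 and 50.5 CPM in the PBS wells, at -0.48, and Ndufab1 had 119.9, 111.5 and 113.5 CPM in the IL-27 wells and 124.2 and 156.5 CPM in the PBS wells, at -0.27 with an edgeR adjusted p of 0.97. PBS well 2, highest for Ndufa1 and Ndufab1, is the well whose CD4 T and regulatory T gates held the most Cd74 and epithelial RNA. It is also the only well with Y-linked RNA, and the part of sex was not tested. Ndufb3 had 159.2, 130.7 and 126.8 CPM in regulatory T cells of the IL-27 wells and 115.5 and 136.3 CPM in those of the PBS wells, overlapping, and Ndufa10 91.3, 99.95 and 97.5 CPM in the IL-27 wells and 89.3 and 75.7 CPM in the PBS wells, the IL-27 values all higher. In NK cells Ndufs7 had 190.0, 183.3 and 159.3 CPM in the IL-27 wells and 139.2 and 139.4 CPM in the PBS wells, at 0.37, and Ndufb4, of the membrane arm, 101.3, 166.6 and 159.3 CPM in the IL-27 wells and 250.5 and 175.4 CPM in the PBS wells, at -0.45. Ndufc2 had 57.0, 99.97 and 119.5 CPM in NK cells of the IL-27 wells and 132.2 and 121.4 CPM in those of the PBS wells, and Ndufb9 278.7, 227.7 and 278.9 CPM in the IL-27 wells and 187.9 and 233.9 CPM in the PBS wells. Among these NK values those of Ndufb9 overlapped, and for all 4 genes the edgeR adjusted p was at least 0.89. In B cells, the gate with the most cells, Ndufc2 had 93.6, 91.7 and 100.1 CPM in the IL-27 wells and 90.9 and 83.4 CPM in the PBS wells, a log2 ratio of 0.13, and Ndufv2 107.9, 99.5 and 106.8 CPM in the IL-27 wells and 116.5 and 110.6 CPM in the PBS wells, a log2 ratio of -0.11. In both the wells of the groups did not overlap. Ndufaf7 had 14.4, 14.7 and 16.3 CPM in B cells of the IL-27 wells and 12.8 and 13.9 CPM in those of the PBS wells, with no overlap, and Ndufaf2 18.5, 14.9 and 17.3 CPM in the IL-27 wells and 17.7 and 19.99 CPM in the PBS wells, overlapping. Over all members 4 lay above and 6 below in this way in B cells, of 45, where 12.7% and 8.34% of genes did. In conventional CD4 T cells it was 4 and 6, where 11.3% and 10.6% of genes did, and in regulatory T cells 1 and 6, where 10.5% and 10.9% did. In CD8 T cells 1 lay above and 15 below, where 8.12% and 15.1% of genes did, and in NK cells 2 and 7, where 7.95% and 10.2% did.

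**Figure D5:**
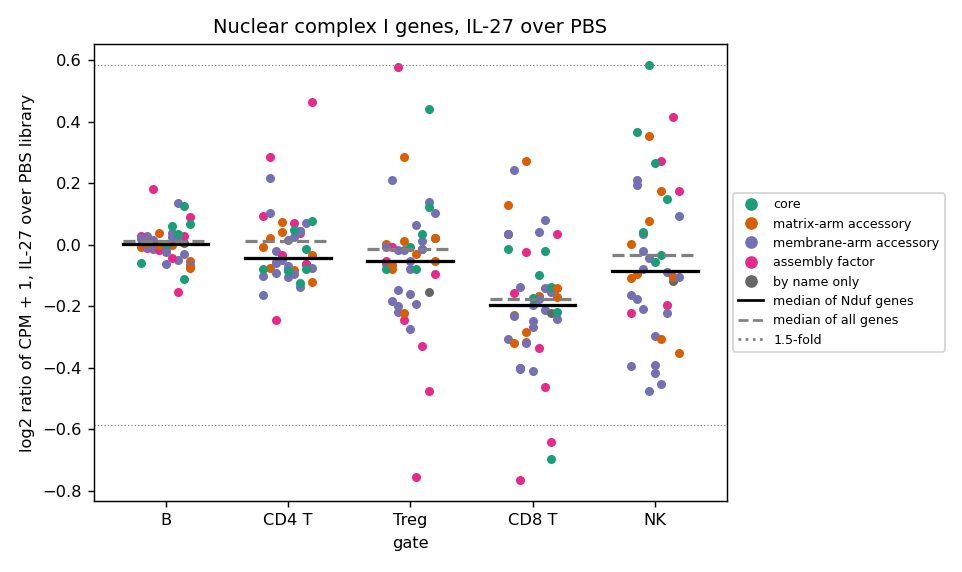
Log2 ratio of IL-27 over PBS library CPM (plus 1 CPM, y axis) for each Nduf gene with at least 20 UMIs (points, coloured by role) in 5 gates (x axis), with the median of the Nduf genes (black), the median of all genes (grey dashes) and 1.5-fold (dotted). In CD8 T cells both medians lie low, at -0.19 and -0.17, and the points spread more in the gates with fewer cells.

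The summed level of the members was compared with 4386 genes over the 12 gates of at least 50 cells. These genes had at least 10 CPM in every such gate. The members and the lists above, with the other complexes, assembly factors and mitochondrially encoded genes, were left out beforehand and so are not ranked. Most like the sum were Mrpl27, a mitochondrial ribosomal protein (Pearson r = 0.93), Minos1, of the cristae organising complex (r = 0.90), Mrps33, also a mitochondrial ribosomal protein (r = 0.90), Chchd2, a mitochondrial intermembrane space protein (r = 0.89), and Eif5a, a translation factor (r = 0.89). These are descriptions across gates that share wells and libraries. Among the members themselves, Ndufb9 (r = 0.92) and Ndufv2 (r = 0.91) followed the sum most closely. Each member is part of that sum, so its r is not comparable with those of the genes outside. Ndufaf4 (r = -0.27), Ndufa6 (r = -0.13) and Ndufaf1 (r = -0.04) did not follow it. Among the members given by name, Ndufs7 varied least, with a fold of 1.31 between its highest and lowest gate, followed by Ndufb4 (1.41) and Ndufaf8 (1.42). Ndufa12 had a fold of 3.54, highest in cycling B cells at 188 CPM and lowest in macrophages and monocytes at 53.2 CPM, and Ndufa4 one of 3.36, highest in cycling B cells at 829 CPM and lowest in type 2 innate lymphoid cells at 247 CPM. Ndufaf6, Ndufaf2, Ndufa9 and Ndufaf7 varied more, but each had only 2 or 3 UMIs in its lowest gate, and Ndufaf1 had 0 in mast cells.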

How the data were processed

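Gastric CD45+ cells of 3 IL-27 and 2 PBS mice were measured by single-cell RNA sequencing. The authors deposited whole-number UMI counts per gene and cell, 1 matrix per group, made with Cell Ranger 3.0.0 per the submitters' processing notes, while the file headers give software version 3.1.0. Cells with at least 200 genes and at most 10% mitochondrial UMIs were kept. Doublets were treated only by gates that exclude other lineages. UMIs were summed per well (barcode suffix) and gate, with at least 10 cells, and CPM was taken over all genes. Differences between gates were tested with edgeR 4.0.16 (TMM scaling, quasi-likelihood, Benjamini-Hochberg over all genes, threshold 0.05) in R 4.3.3, with the well as a block because both gates come from the same well. IL-27 was compared with PBS over 3 and 2 wells in the same way without a block, and by library as log2 of CPM plus 1 CPM for members with at least 20 UMIs, with exact 95% intervals that cover counting error only. The SE given with an edgeR fold change is the log2 fold change, without its sign, divided by the square root of the test's F statistic. DESeq2 1.42.0, other filters, scalings and gates, and each well left out were tried. The test without TMM, that on cells of at least 8000 UMIs and the interaction were chosen after seeing the data. The steps were tested on simulated data. Members and lists were chosen with earlier results of these data known. Genes given per well were, in a contrast of gates, the 3 highest and 3 lowest called, and between IL-27 and PBS the 2 highest and 2 lowest ratios with at least 100 UMIs. The values of 1 member are not reported here by name, though counts and sums include it. Cycling B over other B cells could not be fitted, having 1 well.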

Additional observations from a re-analysis of the deposited data

How the results depend on the processing

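No paired analysis was possible because the labels carry no replicate numbers shared between IL-27 and PBS. DESeq2 gave 1 member lower in CD4 T over B cells (4 by edgeR), 0 higher in regulatory over CD4 T (2), 1 higher in CD8 over CD4 T (5), 0 higher and 2 lower in NK over CD4 T (1 and 6), and 0 and 0 in macrophages and monocytes over B (5 and 4). Without TMM there were 0 lower in CD4 T over B, 0 higher and 10 lower in CD8 over CD4 T, and 3 and 1 in NK over CD4 T. There were 9 higher in macrophages and monocytes, where 14.7% of genes were, and 14 higher in plasmacytoid dendritic cells (9), where 18.4% were. The other shares of genes under DESeq2 and without TMM are given above. In CD8 over CD4 T cells Ndufa2, Ndufab1 and Ndufa4 turned to -0.0499, -0.0657 and -0.0580 without TMM. With no filter on low counts there were 0 higher and 1 lower in regulatory T, where 650 and 717 of 15656 genes were. CD8 T had 2 higher, where 1087 of 16179 genes were. NK had 0 higher and 11 lower, where 1091 and 1564 of 15426 genes were. Macrophages and monocytes had 1 higher, where 1478 of 16520 genes were. The stricter cell filter gave 1 lower in regulatory T, where 505 of 6818 genes were, and 3 higher in CD8 T, where 957 of 8912 were. It gave 2 higher in plasmacytoid dendritic cells, where 1070 of 10581 genes were. Without mitochondrial, ribosomal protein and antigen receptor genes 3 were higher in macrophages and monocytes, where 1353 of 10006 genes were. Without the 5% of cells with the most UMIs there was 1 lower in regulatory T, where 499 of 6562 genes were. Macrophages and monocytes had 0 higher and 2 lower, where 894 and 965 of 10246 genes were. Plasmacytoid dendritic cells had 1 lower, where 1586 of 10088 genes were. Cycling T cells had 0 and 0, where 276 and 134 of 8774 genes were. In that fit Ndufs3 turned to -0.0928 and only 2 wells were left. Cells of at least 8000 UMIs gave 12 higher in cycling T (31), where 16.7% of genes were.

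Between libraries, without the 5% of cells with the most UMIs the median log2 ratio was -0.0067 in CD4 T and -0.0364 in regulatory T cells, with 1, 2 and 0 members 1.5-fold apart in CD4 T, regulatory T and NK cells. Stricter gates gave -0.0406 and 2 members in regulatory T and 3 in NK cells, and a pseudocount of 5 CPM gave -0.0434 and 0 in regulatory T and 0 in NK cells. All members with a UMI gave 2 in NK cells. CPM without mitochondrial, ribosomal protein and antigen receptor genes gave -0.0265 and 2 members in regulatory T cells and 0.0045 and 1 in CD8 T cells. The summed level over B cells then was 1.23 in regulatory T, 1.07 in NK and 1.19 in plasmacytoid dendritic cells, and without the deepest cells 1.39 in plasmacytoid dendritic and 1.25 in cycling T cells.

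Leaving out 1 well gave 2 to 4 lower in CD4 T over B, where 2934 to 3491 genes of 10848 to 10921 were. Regulatory T had 0 to 3 higher (429 to 684 genes of 6628 to 8341). CD8 T had 1 to 21 higher and 0 to 1 lower (458 to 1718 and 452 to 1666 genes of 8900 to 9148). NK had 0 to 1 higher and 3 to 7 lower (764 to 979 and 819 to 1102 genes of 6542 to 7841). Macrophages and monocytes had 0 to 6 higher and 0 to 2 lower (920 to 1267 and 1017 to 1140 genes of 10227 to 10625). Plasmacytoid dendritic cells had 5 to 8 higher (1106 to 1595 genes of 10185 to 10408). For IL-27 over PBS in CD8 T cells the members' median log2 fold change ran from -0.108 without PBS well 2 to 0.138 without PBS well 1, each with 1 PBS well left. By library the medians ran from -0.0630 to -0.0148 in CD4 T, -0.0758 to -0.0203 in regulatory T and -0.342 to -0.0731 in CD8 T cells, and the members 1.5-fold apart from 0 to 2, 1 to 4, 0 to 12 and, in NK cells, 1 to 7. No share of all genes is given for members 1.5-fold apart under these alternatives, here and in the paragraph before. Those counts do not set the members apart from other genes. The causes were not tested. Of the 37 named differences between gates, taken over these alternatives, 299 values kept direction and call, 123 lost the call and 4 turned. Small gates limit the depth, with 28 UMIs of Ndufaf3 in NK cells.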
